A study of Mus musculus with 84 samples.

Results

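The 10 genes described here are the mouse genes of the major histocompatibility complex (MHC) class II pathway, chosen by name from 21851 protein-coding genes. They are H2-Aa, H2-Ab1 and H2-Eb1 (the chains that present antigen), Cd74 (the invariant chain), H2-DMa, H2-DMb1 and H2-DMb2 (subunits of the peptide exchanger), H2-Oa and H2-Ob (subunits of its inhibitor) and Ciita (the transactivator). Their histone marks were measured by CUT&Tag, in which a transposase tethered to an antibody cuts DNA beside a chosen histone mark, in adipocyte nuclei of the epididymal adipose tissue (epiAT) of AdipoERCre x NuTRAP mice on a background labelled C576BL6. All groups carried both transgenes and received tamoxifen, so Cre, driven in adipocytes, switched on a biotin tag by which adipocyte nuclei were pulled down from frozen tissue. The groups differed in diet and time. In the 12-week cohort, C mice ate chow and were 18 weeks old, H mice ate a high-fat diet (HFD) for 12 weeks and were 18 weeks old, CC_s mice ate chow and were 26 weeks old, and HC mice ate HFD for 12 weeks and then chow for 8 weeks (weight loss, WL) and were 26 weeks old. In the 25-week cohort, CC_l mice ate chow and were 31 weeks old, HH mice ate HFD for 25 weeks and were 31 weeks old, CCC mice ate chow and were 39 weeks old, and HHC mice ate HFD for 25 weeks and then chow for 8 weeks and were 39 weeks old. There were 84 libraries: 21 for H3K4me3, 21 for H3K27ac, 22 for H3K4me1 and 20 for H3K27me3, with 3 libraries in 20 groups of a mark and a diet and 2 in the other 12. In bulk nuclei, fewer nuclei of a type that carries a mark and less of the mark per nucleus cannot be told apart.

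MHC class II molecules carry peptides from engulfed material to the cell surface, where CD4+ T cells read them. The invariant chain, the product of Cd74, guards the groove of a new class II molecule, H2-DM exchanges the last fragment of that chain for a peptide, and H2-O restrains H2-DM. Dendritic cells, B cells and macrophages express the pathway constantly or on activation, and other cells mostly after interferon-γ. CIITA is the main co-activator of class II promoters. It binds no DNA itself and docks on RFX, CREB and NF-Y, which sit on the X and Y boxes of class II promoters. H3K4me3 and H3K27ac mark active promoters, H3K4me1 marks enhancers and promoter flanks, and H3K27me3 marks repression by Polycomb.

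Promoter sequences searched for the letters of these boxes are shown for 4 members, 1 each of the antigen-presenting α and β chains, the peptide exchanger and its inhibitor. The sequences are RefSeq bases of GRCm38.p6 that end at or before the transcription start, 5′ to 3′ on the gene's strand. Capitals mark a Y box searched as TGATTGG and an X box searched as AACNNATGA, on both strands and with no overlap between them, with letters chosen after the sequences were seen.
H2-Aa (chr17:34287824-34287953, minus strand): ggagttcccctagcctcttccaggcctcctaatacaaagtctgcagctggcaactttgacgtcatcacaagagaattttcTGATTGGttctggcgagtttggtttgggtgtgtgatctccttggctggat
H2-Eb1 (chr17:34305737-34305866, plus strand): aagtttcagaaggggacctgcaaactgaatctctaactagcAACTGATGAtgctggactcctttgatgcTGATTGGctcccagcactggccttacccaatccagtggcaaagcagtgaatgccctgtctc
H2-DMb2 (chr17:34145119-34145235, plus strand): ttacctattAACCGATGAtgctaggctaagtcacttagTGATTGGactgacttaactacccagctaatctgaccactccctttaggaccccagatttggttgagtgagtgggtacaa
H2-Ob (chr17:34238775-34238902, plus strand): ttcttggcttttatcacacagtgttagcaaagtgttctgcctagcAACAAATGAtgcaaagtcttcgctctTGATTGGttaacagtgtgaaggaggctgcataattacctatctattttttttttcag

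Of the 10 members, 7 matched a RefSeq promoter window of 300 bases (250 before and 50 after the start), in 8 windows. The Y box letters stood in 6 of these 8 windows, against 7.82% of 32851 windows of all genes, and the X box letters in 4, against 2.85%. The letters were chosen after the sequences were seen, so a higher share at members was partly built in and is no test. The X box letters stood within 50 bases before the Y box letters, on the same strand, in 12 of all the windows (0.0365%), and 4 of the 12 belonged to members: H2-Eb1, H2-DMb1, H2-DMb2 and H2-Ob. The distance from X to Y was 28 bases at H2-Eb1, 29 at H2-DMb1 and H2-DMb2 and 26 at H2-Ob. The windows of H2-DMa held neither run of letters, which says nothing of the factors. A match is a run of letters and not a shown binding site.

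The deposited lists hold the peaks of each library, so a promoter's value is the percent of its window, 2000 bp either side of each annotated protein-coding start, that lies under peaks. A promoter with any peak base is called marked. Of the members, 8 lie on chromosome 17 (GRCm38), from H2-Oa (chr17:34092340-34095234) to H2-Eb1 (chr17:34305867-34316674), and the others are Ciita (chr16:10480059-10528418) and Cd74 (chr18:60803848-60812652). The window of H2-DMa also covers a start of the neighbouring gene Brd2, and H2-DMb1 and H2-DMb2 are closely related tandem copies, so that peaks could be assigned to either.

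The libraries held 11249 to 41976 peaks for H3K4me3, 12174 to 41989 for H3K27ac, 14486 to 40682 for H3K4me1 and 21809 to 46397 for H3K27me3, and the read depth of each library is not in these lists. Adipocyte marker promoters (10 genes, among them Adipoq, Plin1 and Pparg) carried H3K4me3 at 9 or 10 of 10 in every library but replicate 3 of HHC, where 6 were marked. Replicate 3 of H had the fewest H3K4me3 peaks (11249), and replicate 1 of HHC the widest coverage of the class II locus. Replicate 3 of HHC, replicate 1 of HH and replicate 3 of HC had few adipocyte promoters marked in 1 or more marks. The treatment field disagreed with the title for the H3K4me3 libraries CC_l 2, HH 2, HH 3 and CCC 3 (4 in all, of 25 weeks); titles were used, and values under both are given where they bear on a result. The 12-week values are untouched by this conflict, and every H3K4me3 statement on HH, CC_l or CCC holds for the titles alone. Under the treatment field the obese H3K4me3 promoter difference turned from 27.1 to -11.7 points for H2-Ab1, from 28.5 to -8.20 for H2-Eb1, from 15.0 to -1.24 for H2-DMb1, from 15.5 to -21.2 for H2-DMb2, from 33.9 to -11.6 for H2-Ob, from 30.0 to -21.7 for Cd74 and from 10.1 to -5.83 for Ciita. None of these 7 differences passed the test under either label.

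Comparisons were made for obese mice (H against C and HH against CC_l) and for WL mice (HC against CC_s and HHC against CCC). The difference was averaged over both cohorts and tested with an exact permutation test, two-sided, that permuted labels within cohorts and ran over all genes. The smallest p it allowed was between 0.00500 and 0.0167, depending on the mark and comparison. The threshold was an unadjusted p of 0.05 or less, and no member passed after Benjamini-Hochberg adjustment over all genes tested. Counts of called members are therefore set beside the percent of all genes called, named the background.

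More class II promoters carried H3K4me3 in HH and HHC than in any other group. The number of marked members was 2, 6 and 7 of 10 in C, 6, 8 and 1 in H, 1, 1 and 3 in CC_s, 3, 1 and 6 in HC, 6 and 5 in CC_l, 9 and 9 in HH, 5 and 3 in CCC, and 10, 10 and 10 in HHC. In the 25-week cohort all HH and HHC libraries lay above all their controls, whereas in the 12-week cohort H overlapped C and HC overlapped CC_s. Over the same libraries 41.7% to 66.0% of all promoters were marked, with 62.5% to 66.0% in HHC and 62.5% to 63.1% in CCC. The mean difference from controls over both cohorts was 1.75 members in obese and 3.83 in WL mice. When groups followed the treatment field and not the titles, the obese difference was -1.75 and the WL difference 2.33.

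**Figure D1:**
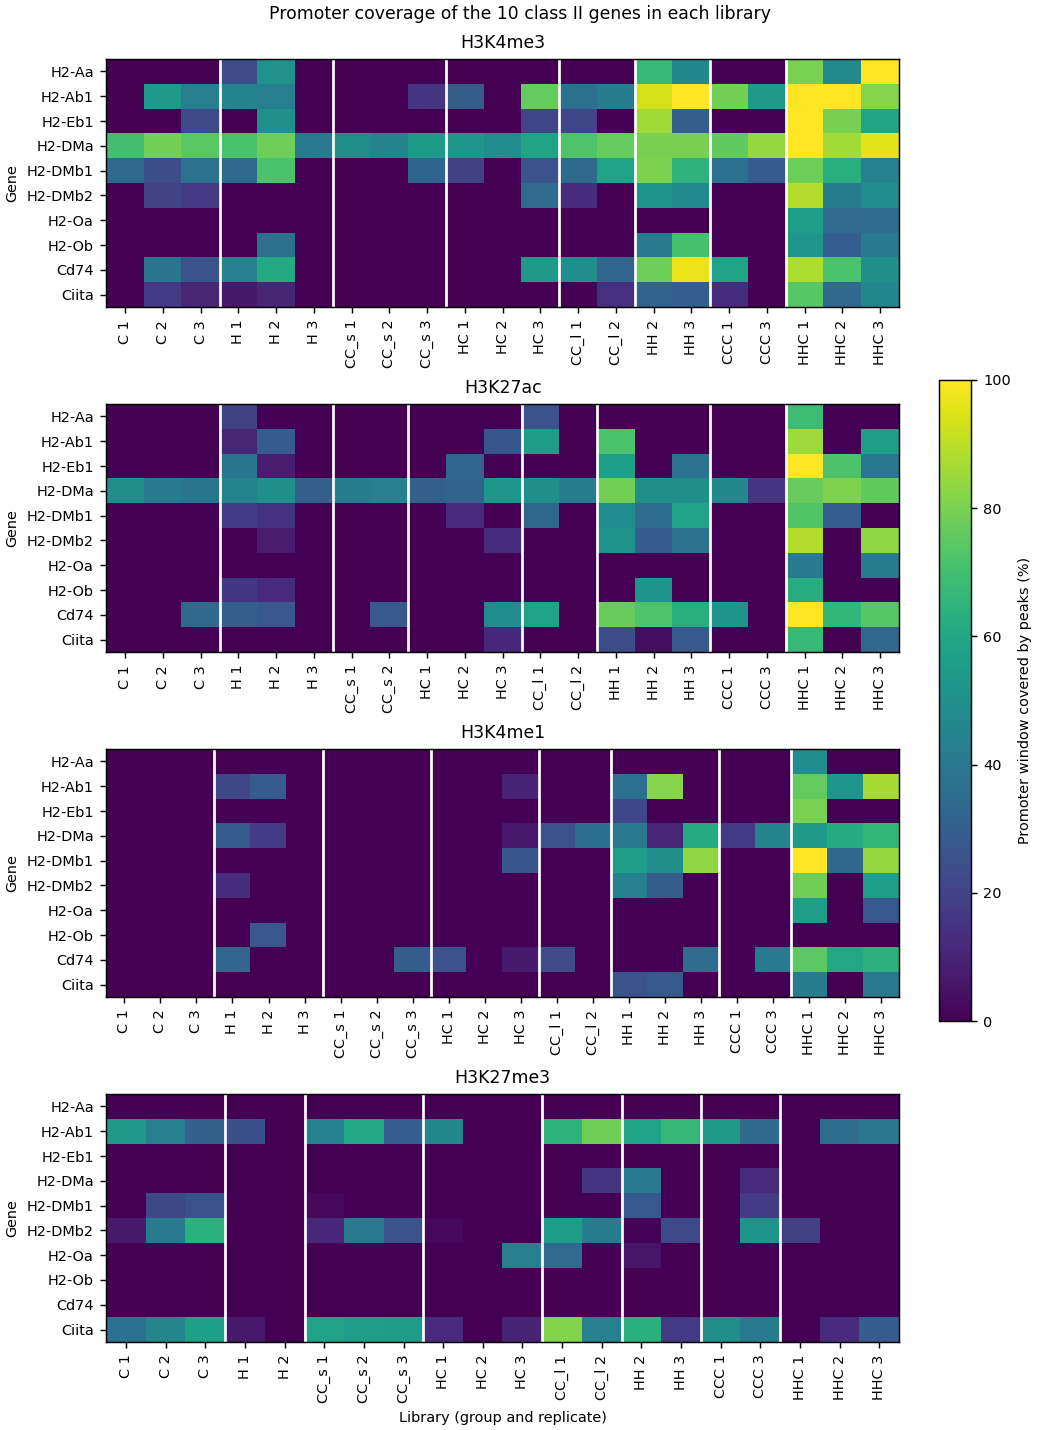
Percent of the promoter window under peaks (colour) for each class II gene (vertical axis) in each library (horizontal axis, ordered by group), with 1 panel for each mark. H3K4me3 fills all 10 genes in HHC, and H3K27me3 appears at H2-Ab1, H2-DMb2 and Ciita and at no library of H2-Aa, H2-Eb1, H2-Ob or Cd74.

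H2-Aa, the α chain of the I-A molecule, had no H3K4me3 in any of the 10 control libraries. H libraries had 23.2%, 50.4% and 0% of the promoter covered, the 3 HC libraries 0%, HH libraries 66.8% and 46.7%, and HHC libraries 79.8%, 47.3% and 100%. Every HH and HHC library thus lay above every control, and HC did not. In obese mice the difference averaged over cohorts, 40.7 percentage points, did not pass (exact permutation p = 0.0667). Without replicate 3 of H it was 46.8 (exact permutation p = 0.0167). The Y box shown above lay under an H3K4me3 peak in 0 of 10 control and 7 of 11 diet libraries.

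H2-Ab1, the partner β chain, was marked in most groups. Its H3K4me3 coverage was 0%, 54.1% and 42.7% in C and 44.6%, 43.2% and 0% in H, 0%, 0% and 15.0% in CC_s and 29.4%, 0% and 76.2% in HC, 37.0% and 42.2% in CC_l and 93.4% and 100% in HH, and 79.2% and 54.1% in CCC and 100%, 100% and 82.0% in HHC. The groups overlapped in the 12-week cohort and did not in the 25-week cohort. In WL mice the difference was 28.8 points (30.2 at 12 weeks and 27.3 at 25 weeks, exact permutation p = 0.0450, adjusted p = 0.723). It was 18.5 (exact permutation p = 0.0800) without replicate 3 of HC, 22.5 (exact permutation p = 0.0875) without replicate 3 of CCC and 19 (exact permutation p = 0.145) with the treatment field.

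H2-Eb1, the β chain of I-E, was marked in 2 of 10 controls, at 22.6% in C 3 and 20.9% in CC_l 1. H libraries had 0%, 50.3% and 0%, HC libraries 0%, 0% and 20.9%, HH libraries 85.9% and 30.4%, both CCC libraries 0%, and HHC libraries 100%, 79.6% and 58.2%. The Y box shown above lay under a peak in 2 of 10 control and 6 of 11 diet libraries. The widest single peak, 9592 bp, was in HHC 1. The WL difference of 43.1 points (6.96 at 12 weeks and 79.3 at 25 weeks, exact permutation p = 0.05, adjusted p = 0.723) came almost wholly from HHC. With the treatment field it was 21.7 (exact permutation p = 0.300), and without CCC 3 it was 43.1 (exact permutation p = 0.125).

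Cd74 had H3K4me3 coverage of 0%, 38.5% and 25.8% in C and 43.5%, 61.1% and 0% in H, 0% in all CC_s libraries and 0%, 0% and 53.8% in HC, 49.2% and 32.6% in CC_l and 77.8% and 97.0% in HH, and 57.7% and 0% in CCC and 87.6%, 71.7% and 49.6% in HHC. Its widest peak at the promoter measured 1733 and 1306 bp in CC_l against 5704 and 6255 bp in HH, and 2312 and 0 bp in CCC against 6987, 5630 and 2615 bp in HHC, so both diet groups had wider peaks than all their controls. HH lay above CC_l and HHC overlapped CCC. The obese difference was 30.0 points (exact permutation p = 0.1) with all libraries and 38.7 (exact permutation p = 0.0333) without replicate 3 of H. With the treatment field the obese difference turned to -21.7 (exact permutation p = 0.417).

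The H2-DM genes, whose product loads peptides, differed among themselves. H2-DMa was marked in all 21 libraries, between 40.3% and 100%, and its highest values were the 100%, 86.0% and 95.8% of HHC, against 75.6% and 84.3% in CCC. Split by start, in windows of 500 bp either side, the upstream start shared with Brd2 was covered at 100% in all 21 libraries. The second group of H2-DMa starts, away from Brd2, was covered at 100% in both CCC and all 3 HHC libraries. It was marked in 2 of 3 CC_s libraries and in every library of the other groups. The higher H2-DMa values of HHC than of CCC thus came from bases outside these windows. H2-DMb1 had 34.5% and 58.0% in CC_l against 80.5% and 64.8% in HH, and 36.7% and 29.3% in CCC against 78.0%, 62.6% and 44.1% in HHC, with no overlap, and overlapping values in the 12-week cohort. H2-DMb2 had 12.7% and 0% in CC_l, 51.8% and 47.4% in HH, 0% in both CCC libraries and 88.4%, 42.1% and 48.8% in HHC, with 0% in all libraries of H and CC_s, 35.2% in 1 HC library and up to 20.6% in C. The WL difference of H2-DMb2 was 35.7 points (11.7 at 12 weeks and 59.8 at 25 weeks, exact permutation p = 0.05, adjusted p = 0.723), and with the treatment field it was 22.8 (exact permutation p = 0.25). Without CCC 3 it was 35.7 (exact permutation p = 0.125).

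The inhibitor genes were the rarest. H2-Oa was marked by H3K4me3 in the 3 HHC libraries alone among 21, at 55.7%, 35.1% and 35.7%. H2-Ob was marked in 1 H library (36.7%), in HH (40.4% and 70.7%) and in HHC (52.0%, 29.8% and 40.9%), and in no control. Its Y box, shown above, lay under a peak in 0 of 10 control and 5 of 11 diet libraries. Over the groups of 1 cohort, H2-Aa and H2-Ob had a peak in every HH and no CC_l library, and H2-Aa, H2-Eb1, H2-DMb2, H2-Oa and H2-Ob in every HHC and no CCC library. Such a pattern held for 1.91% of all promoters for HH and 1.97% for HHC, and for no member in H or HC.

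In all, 3 of 10 members tested passed in WL mice for H3K4me3 (H2-Ab1, H2-Eb1 and H2-DMb2, all higher), beside a background of 5.05% of promoters called higher. In obese mice 0 of 9 passed, beside 0.0132%. Leaving out H 3 and HHC 1 together, an alternative added after the data were seen, the WL differences of these 3 were 27.3 (exact permutation p = 0.0833), 37.9 (exact permutation p = 0.167) and 28.6 (exact permutation p = 0.167), so none passed.

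Ciita, the transactivator, bore H3K4me3 at 0%, 16.9% and 10.9% of its promoter windows in C and 6.41%, 10.5% and 0% in H, at 0% in all CC_s and HC libraries, at 0% and 13.7% in CC_l and 31.5% and 29.8% in HH, and at 12.5% and 0% in CCC and 73.9%, 34.3% and 46.7% in HHC. The 25-week diet groups lay above their controls, and H did not lie above C. Transcripts of Ciita begin at alternative starts that different cell types use, and the annotation holds 3 groups of protein-coding starts. The most downstream group (chr16:10489781-10489783), in a window of 500 bp either side, was covered at 76.6% and 100% in HH and 100% in all 3 HHC libraries. It was also covered in 1 library each of C (69.7%), CC_l (100%) and CCC (83.8%), and in none of H, CC_s or HC. The middle start (10488279) was covered in both HH libraries (62.3% and 30.7%), in all 3 HHC libraries (54.3% to 100%) and in 2 of 3 C libraries (8.39% and 55.8%). The most upstream start was covered in 1 H library (71.3%) and in 2 of 3 HHC libraries (72.5% and 100%).

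H3K27ac was also found at more class II promoters in HH and HHC than in their controls. The number of marked members was 1, 1 and 2 in C and 7, 7 and 1 in H, 1 and 2 in CC_s and 1, 3 and 5 in HC, 5 and 1 in CC_l and 7, 6 and 6 in HH, and 2 and 1 in CCC and 10, 4 and 7 in HHC. Both 25-week diet groups lay above their controls, and the 12-week diet groups overlapped theirs. The mean difference was 3.5 members in obese and 3.5 in WL mice. Of all promoters, 46.7% to 53.6% were marked in CC_l and 44.2% to 55.1% in HH. In CCC 17.7% to 50.8% were marked, below the 52.3% to 53.6% of HHC. The 17.7% was the lowest share of any H3K27ac library, so the comparison of HHC with CCC rests partly on a sparse control. H2-DMa carried the mark in all 21 libraries. H2-Eb1, H2-DMb2 and Ciita carried it in 0 of 9 control libraries.

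H libraries had 38.9%, 7.57% and 0% of the H2-Eb1 promoter under H3K27ac, HC libraries 0%, 32.5% and 0%, HH libraries 56.5%, 0% and 38%, and HHC libraries 100%, 71.9% and 39.4%. H2-DMb2 reached 7.44% in 1 H and 12.7% in 1 HC library, 51.0%, 28.9% and 37.1% in HH, and 88.5%, 0% and 82.9% in HHC. Ciita reached 11.1% in 1 HC library, 23.5%, 3.82% and 28% in HH, and 67.0%, 0% and 34.6% in HHC. A peak in every HH and no CC_l library was found for H2-DMb2 and Ciita (0.724% of all promoters), and in every HHC and no CCC library for H2-Eb1 (3.74%).

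H2-DMb1 had H3K27ac coverage of 0% in C and 17.9%, 14.6% and 0% in H, and of 33.4% and 0% in CC_l and 48.6%, 35.9% and 57.7% in HH. The obese difference was 20.8 points (10.8 at 12 weeks and 30.7 at 25 weeks, exact permutation p = 0.0200, adjusted p = 0.245), and 12.4 (exact permutation p = 0.1) without CC_l 2. H2-DMb2 differed by 20.7 points (2.48 and 39.0, exact permutation p = 0.05, adjusted p = 0.281). Of 9 members tested, these 2 were higher in obese mice, beside a background of 0.909%, and 0 were lower, beside 16.9%. In WL mice 0 of 10 were higher, beside 1.88%. Without HH 1, HHC 3 and HC 3 together, an alternative added after the data were seen, the obese differences were 20.5 (exact permutation p = 0.0667) for H2-DMb1 and 17.7 (exact permutation p = 0.167) for H2-DMb2.

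The invariant chain gene Cd74 was also acetylated in every HH and HHC library. Its H3K27ac coverage was 0%, 0% and 34.6% in C and 30.3%, 27.1% and 0% in H, 0% and 27.7% in CC_s and 0%, 0% and 48.5% in HC, 57.8% and 0% in CC_l and 76.7%, 72.3% and 63.0% in HH, and 51.9% and 0% in CCC and 100%, 66.1% and 74.0% in HHC. HH and HHC lay above their controls and the 12-week groups overlapped. In HHC 1 a single H3K27ac peak of 15096 bp covered it. The other genes had scattered peaks: H2-Ab1 in 2 H, 1 HC, 1 CC_l, 1 HH and 2 HHC libraries, H2-Oa in 2 HHC libraries, H2-Ob in 2 H, 1 HH and 1 HHC libraries, and H2-Aa in 1 library each of H, CC_l and HHC. The second group of H2-DMa starts (chr17:34135628-34135654), away from Brd2, carried H3K27ac in no control, in 2 H libraries (43.2% and 59.1%), 1 HC library (100%), 1 HH library (100%) and all 3 HHC libraries (94.6% to 100%).

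H3K4me1 was scarce at class II promoters in controls. The number of marked members was 0, 0 and 0 in C and 4, 3 and 0 in H, 0, 0 and 1 in CC_s and 1, 0 and 4 in HC, 2 and 1 in CC_l and 6, 5 and 3 in HH, and 1 and 2 in CCC and 9, 4 and 7 in HHC. The mean difference was 2.75 members in obese and 3.25 in WL mice. All promoters marked also varied more for this mark than for the others, from 6.09% to 51.4%, and the 12-week libraries were all below the 25-week ones. HHC had 41.4% to 51.4% of all promoters marked, above the 31.5% to 37.9% of CCC.

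H2-Ab1 had no H3K4me1 in 10 controls. H libraries had 21.2%, 29.2% and 0%, 1 HC library had 9.5%, HH libraries had 36.4%, 81.8% and 0%, and HHC libraries had 76.0%, 52.4% and 86.3%. Its WL difference was 37.4 points (3.17 at 12 weeks and 71.6 at 25 weeks, exact permutation p = 0.05, adjusted p = 0.742). H2-DMb1 also had none in 10 controls, with 26.6% in 1 HC library, 55.7%, 49.9% and 83.3% in HH, and 100%, 33.4% and 84.3% in HHC. H2-DMa had 17.1% and 44.6% in CCC against 54.2%, 62.0% and 66.1% in HHC, and differed by 16.1 points in WL mice (2.31 and 30.0, exact permutation p = 0.05, adjusted p = 0.742). The H2-DMa difference was 9.27 (exact permutation p = 0.125) without CCC 1, and -5.47 (exact permutation p = 0.750) with the most upstream start alone.

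Of 9 members tested for H3K4me1 in WL mice, H2-Ab1 and H2-DMa were called, beside 4.14%, and of 8 in obese mice 0 were called, beside 3.67%. A peak in every HH and no CC_l library was found for H2-DMb1 (3.57% of all promoters), and in every HHC and no CCC library for H2-Ab1 and H2-DMb1 (6.45%). Without H 3 and HHC 1 the WL differences were 36.3 (exact permutation p = 0.167) for H2-Ab1 and 17.8 (exact permutation p = 0.167) for H2-DMa.

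H3K27me3 went the other way at 3 members. Ciita carried it in 10 of 10 control and 7 of 10 diet libraries, H2-Ab1 in 10 and 6, and H2-DMb2 in 9 and 4. No promoter peak of the mark was found at H2-Aa, H2-Eb1, H2-Ob or Cd74 in any of 20 libraries. H2-DMb1 carried it in 4 controls and 1 diet library, H2-DMa in 2 controls and 1 HH library, and H2-Oa in 1 library each of HC, CC_l and HH. The number of members marked was 3, 4 and 4 in C and 2 and 0 in H, 4, 3 and 3 in CC_s and 3, 0 and 2 in HC, 4 and 4 in CC_l and 6 and 3 in HH, and 2 and 5 in CCC and 1, 2 and 2 in HHC. H lay below C, whereas the mean of HH (4.5) was above that of CC_l (4.0), so the obese difference of -1.08 came from the 12-week cohort. The WL difference was -1.75, with overlapping groups in both cohorts. Of all promoters, 13.8% to 17.3% were marked in C and 14.7% to 15.6% in H. The share was 17.9% to 20.9% in CCC and 20.5% to 26.0% in HHC.

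Ciita coverage by H3K27me3 was 36.6%, 45.4% and 56.7% in C and 6.97% and 0% in H, 57.5%, 56.1% and 55.1% in CC_s and 11.8%, 0% and 9.70% in HC, 81.3% and 43.6% in CC_l and 63.3% and 17% in HH, and 49.3% and 40.7% in CCC and 0%, 12.4% and 29% in HHC. Only HH against CC_l overlapped. The WL difference was -40.1 points (-49.1 at 12 weeks and -31.2 at 25 weeks, exact permutation p = 0.01, adjusted p = 0.366). It was -36.7 (exact permutation p = 0.0167) without H 3 and HHC 1 and -44.6 (exact permutation p = 0.0167) without HH 1, HHC 3 and HC 3. The obese difference of -32.5 points did not pass (exact permutation p = 0.0667).

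The most downstream Ciita start held H3K27me3 over 77.1% to 100% of its window in all 10 controls. H libraries had 8.87% and 0% there, HC libraries 8.97%, 0% and 0%, HH libraries 100% and 2.09%, and HHC libraries 0%, 0% and 80.3%. All 3 HHC libraries had H3K4me3 at this downstream start and 1 of 3 had H3K27me3, whereas the H and HC libraries had no H3K4me3 and at most 8.97% H3K27me3. The middle start varied more within groups. Its H3K27me3 was 55.8%, 54.3% and 100% in C and 0% in both H libraries, and CC_s libraries had 30.4%, 100% and 0% against 54.3%, 0% and 0% for HC. CC_l libraries had 100% and 100% against 100% and 0% for HH, and CCC libraries had 95.9% and 87.5% against 0%, 0% and 70.3% for HHC. Diet and control libraries thus overlapped there in the HC and HH comparisons.

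**Figure D2:**
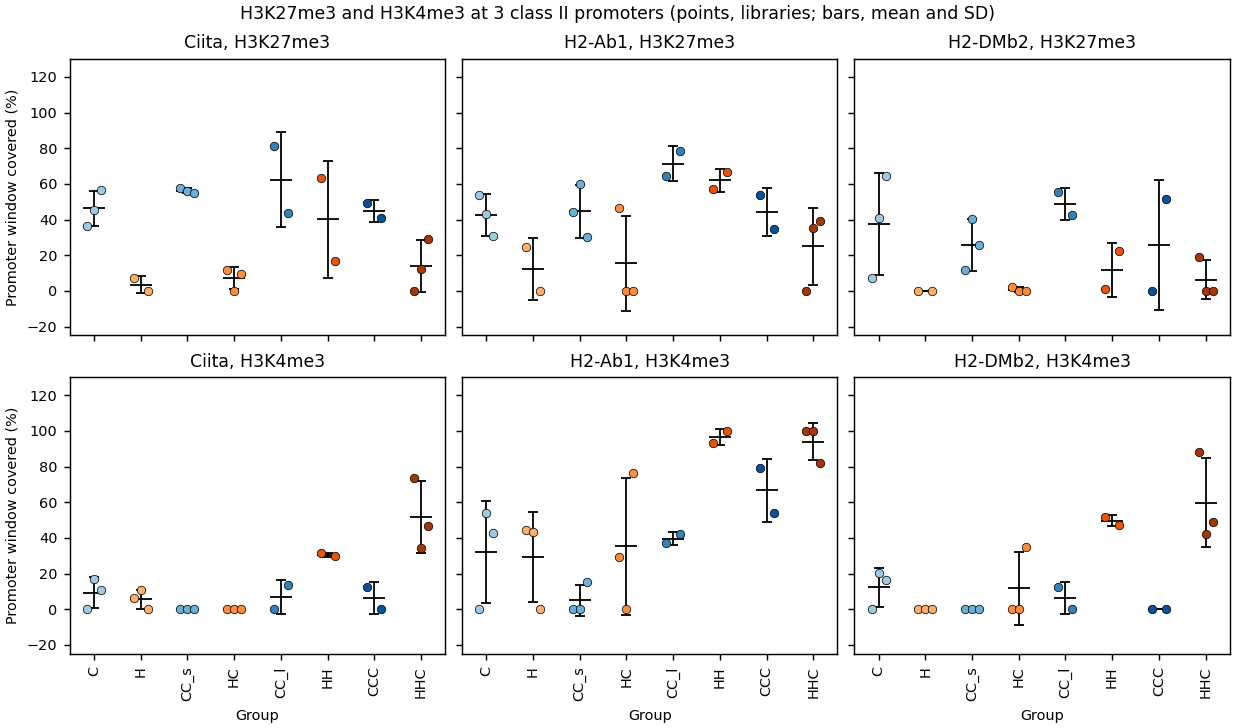
Percent of the promoter window under H3K27me3 peaks (top) and H3K4me3 peaks (bottom) for Ciita, H2-Ab1 and H2-DMb2, by group (horizontal axis). Points are libraries, and bars give the mean and SD. For Ciita, H3K27me3 in HC and HHC sits below CC_s and CCC, and H3K4me3 is highest in HHC.

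H2-Ab1 had H3K27me3 coverage of 54.0%, 43.2% and 30.6% in C and 24.6% and 0% in H, 44.3%, 59.7% and 30.0% in CC_s and 46.2%, 0% and 0% in HC, 64.6% and 78.2% in CC_l and 57.4% and 66.6% in HH, and 53.7% and 34.6% in CCC and 0%, 35.5% and 39.2% in HHC. It overlapped between diet and control in every pair of groups but H and C. The obese difference was -19.9 points (-30.3 and -9.40, exact permutation p = 0.05, adjusted p = 0.476), and the WL difference of -24.2 did not pass (exact permutation p = 0.0950). The H2-Ab1 windows thus held both H3K27me3 and H3K4me3 peaks in several groups, and which nuclei carried each was not measured.

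H2-DMb2 had 7.11%, 40.9% and 64.3% in C and 0% and 0% in H, 11.5%, 40.3% and 25.5% in CC_s and 2.13%, 0% and 0% in HC, 55.2% and 42.5% in CC_l and 1.04% and 22.5% in HH, and 0% and 51.8% in CCC and 19.1%, 0% and 0% in HHC. Only HHC and CCC overlapped. The obese difference was -37.3 points (-37.5 and -37.1, exact permutation p = 0.0333, adjusted p = 0.476), and the WL difference of -22.3 did not pass (exact permutation p = 0.0550). The Y box letters of H2-DMb2 lay under an H3K27me3 peak in 5 of 10 control and 0 of 10 diet libraries, and under an H3K4me3 peak in 2 of 10 control and 6 of 11 diet libraries.

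Of 6 members tested, 2 were called lower in obese mice (H2-Ab1 and H2-DMb2), beside a background of 9.19%, and 1 in WL mice (Ciita), beside 9.12%. In obese mice the groups did not overlap in either cohort for H2-DMb2, beside 5.14% of promoters lower in that way, and in WL mice for Ciita, beside 2.97%. Every H library and no C library lacked H3K27me3 at H2-DMb2, and such a loss held for 6.13% of all promoters. H3K27me3 peaks covered 16.9 and 20 Mb of the genome in H against 43 to 64.1 Mb in C, and 8.54 to 36.3 Mb in HC against 43.2 to 60.5 Mb in CC_s. In the 25-week cohort they covered 78.0 to 82.9 Mb in HHC, above the 61.4 and 70.4 Mb of CCC. The part of this in the differences at the members was not tested.

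Over gene bodies with their flanks (5000 bp on each side), 7 of the 40 pairs of a member and a mark were called in obese mice and 6 in WL mice, against 4 and 6 at promoters. With these flanks some neighbouring members share bases: H2-DMa with H2-DMb2, H2-DMb2 with H2-DMb1, and H2-Ob with H2-Ab1. A peak there counts for both members, so calls of such neighbours are not fully separate. For H3K4me3 in WL mice, 2 of 10 members were higher, beside 6.23%: H2-Ab1 by 16.4 points and H2-Eb1 by 20.5 (exact permutation p = 0.0250 for H2-Eb1, adjusted p = 0.545). With the treatment field these were 14.6 (exact permutation p = 0.0400) and 13.8 (exact permutation p = 0.0250). For H3K27ac in obese mice H2-DMb1 was higher by 5.54 and H2-DMb2 by 11.3 (exact permutation p = 0.0200 for both, adjusted p = 0.166), which is 2 of 10 beside 0.879%. Without CC_l 2 the H2-DMb1 value was 3.59 (exact permutation p = 0.1). For H3K4me1 in obese mice H2-DMa was higher by 8.26 (exact permutation p = 0.0450) and H2-DMb2 by 12.4 (exact permutation p = 0.05), which is 2 of 9 beside 7.24%. Without H 1 the H2-DMa value was 4.67 (exact permutation p = 0.11).

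For H3K27me3 more members passed over whole genes than at promoters. The regions of H2-DMa and H2-DMb2 share bases, so their calls are not fully separate. In obese mice 3 of 9 members were lower, beside 9.48%: Ciita by -20.1 points (exact permutation p = 0.0167), H2-DMb2 by -30.9 (exact permutation p = 0.0333) and H2-Ab1 by -16.1 (exact permutation p = 0.05). In WL mice 4 of 9 were lower, beside 9.15%: H2-DMa by -10.2 and H2-DMb2 by -20.6 (both exact permutation p = 0.00500, the smallest possible), Ciita by -20.8 (exact permutation p = 0.01) and H2-Ob by -7.45 (exact permutation p = 0.0400). Without CCC 3 the H2-DMb2 value was -13.2 (exact permutation p = 0.0125). Groups did not overlap for H2-DMb2 and Ciita in obese mice, beside 6.95%, or for H2-DMa, H2-DMb2 and Ciita in WL mice, beside 3.53%. The H2-DMa region held 11.4%, 11.4% and 14.9% in CC_s against 4.05%, 0% and 4.23% in HC, and 7.95% and 20.7% in CCC against 5.81%, 0% and 5.67% in HHC. Every one of the 6 WL libraries thus held less over H2-DMa than the lowest control of its cohort.

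The 8 members on chromosome 17 lie within 224 kb, which also holds other genes. H3K4me3 peaks covered 11.8% to 16.4% of that span in C, 4.82% to 17% in H, 6.53% to 10.4% in CC_s, 5.55% to 14.5% in HC, 13.5% and 16.8% in CC_l, 31.5% and 25.7% in HH, 17.6% and 17.4% in CCC, and 56.4%, 29.9% and 37.4% in HHC. HH and HHC lay above their controls, and HHC 1 stood apart with the most. H3K27ac covered 57.0%, 19.9% and 25.0% in HHC against 9.94% and 1.63% in CCC, and H3K4me1 47%, 15.7% and 26.6% against 4.22% and 10.2%. H3K27me3 covered at most 19.1% of the span in any library, and 1.23% and 0.164% in H.

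**Figure D3:**
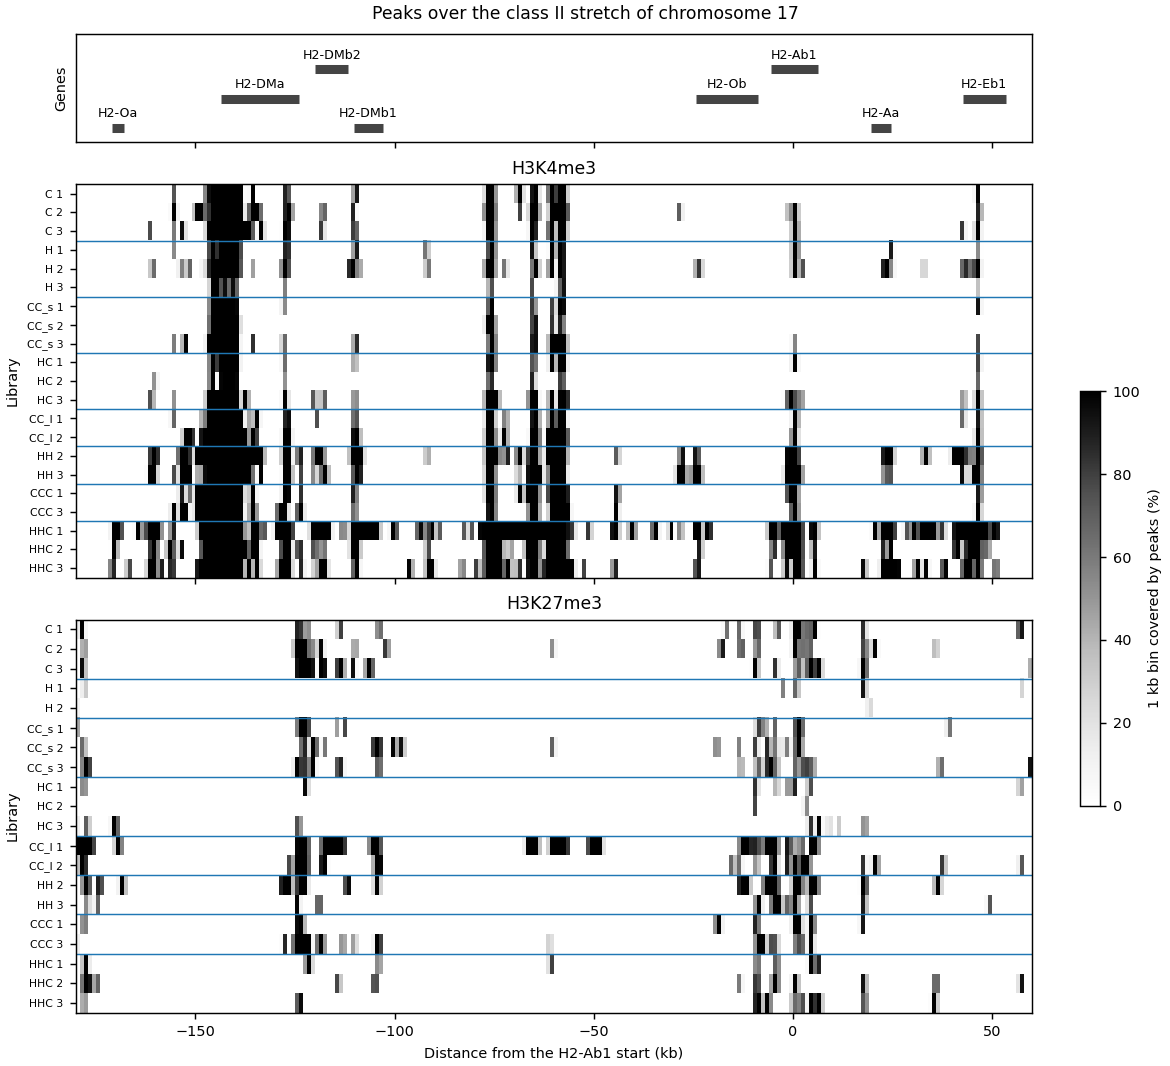
Percent of each 1 kb bin covered by H3K4me3 and by H3K27me3 peaks (colour) across the class II locus, for each library (vertical axis), by distance from the start of H2-Ab1 in kb (horizontal axis), with the member genes drawn on top. H3K4me3 spreads furthest in HHC 1, where it covers 56.4% of the locus.

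Among the members tested, the median difference in H3K4me3 promoter coverage was 27.1 points in obese mice (3.52 at 12 weeks and 46.5 at 25 weeks), beside -4.59 over all promoters tested. This sign depends on the titles, since the differences of 7 of the 9 members tested turned negative under the treatment field. In WL mice it was 25.7 (3.73 and 41.5), beside 2.13. For H3K27ac the medians were 13.3 (7.60 and 18.4) beside -7.30 in obese mice and 20.3 (3.01 and 40.7) beside 7.75 in WL mice. For H3K4me1 they were 9.84 (6.63 and 12.5) beside 3.63 and 16.1 (0 and 30.0) beside 5.74. For H3K27me3 they were -13.6 (-22.9 and -12.1) beside -3.79 in obese mice and -13.5 (-12.9 and -13.9) beside 0.850 in WL mice. With groups by title and cohorts averaged, members were thus above the median promoter for the first 3 marks in both comparisons. They were below it for H3K27me3. For the first 3 marks in WL mice the medians came mostly from the 25-week cohort. The medians over all promoters are not split by cohort here, and no test was made over the members.

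**Figure D4:**
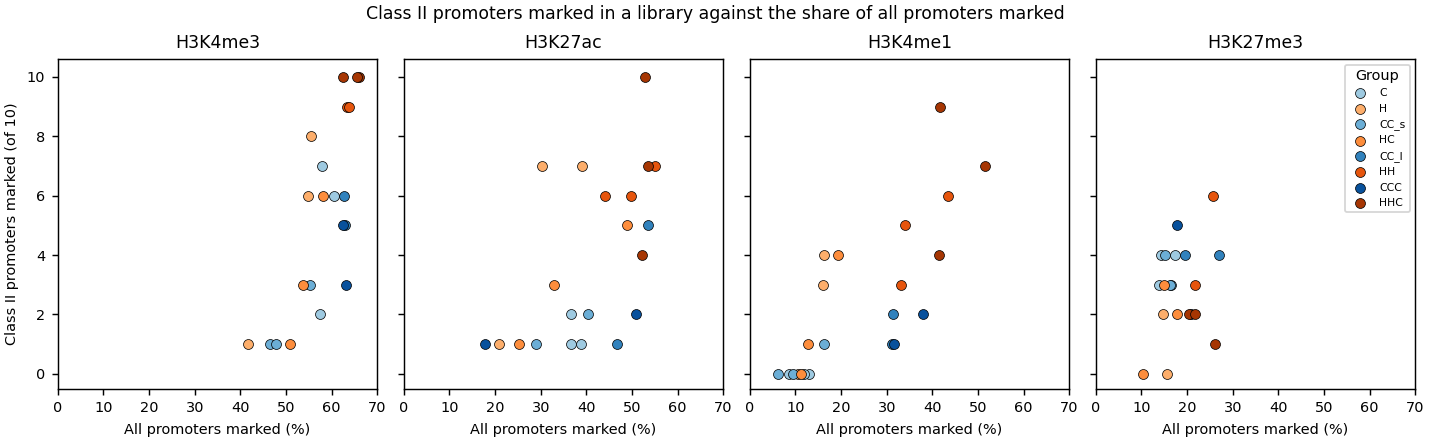
Class II promoters marked, of 10 (vertical axis), against the percent of all promoters marked (horizontal axis), for each mark. Points are libraries, coloured by group. In H3K4me3 the HHC libraries, at 10 of 10, have 62.5% to 66.0% of all promoters marked, close to the 62.5% to 63.1% of CCC, at 5 and 3.

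Macrophage, dendritic cell, B cell and endothelial markers were marked by H3K4me3 at more genes in HH and HHC than in their controls. For T cell markers this held in HHC, whereas HH overlapped CC_l. Mesothelial and progenitor markers overlapped their controls in number. Of 12 macrophage marker promoters, H3K4me3 marked 3, 4 and 3 in C and 10, 10 and 0 in H, 0, 1 and 2 in CC_s and 1, 1 and 6 in HC, 4 and 4 in CC_l and 11 and 11 in HH, and 5 and 3 in CCC and 11, 10 and 10 in HHC. Their summed coverage was 65.7% to 112% in C, 0% to 343% in H, 0% to 51.7% in CC_s, 21.5% to 214% in HC, 78.3% to 186% in CC_l, 522% to 744% in HH, 150.2% to 208% in CCC and 401% to 674% in HHC. Adgre1, which encodes F4/80, and Lyz2, the macrophage lysozyme, were at 0 in all controls, and were marked in 2 of 3 H, both HH and all 3 HHC libraries, and Adgre1 also in 1 HC library. Other genes of the list went another way. Cd14 was marked in 18 and Cd68 in 16 of 21 libraries, with every library of C, CC_l and CCC among them. Spi1 was marked in every CC_l and CCC library, and Itgam in 1 H and 1 HH library alone. The H library with the fewest class II promoters marked, H 3, had none of the 12 macrophage promoters marked, and the HC library with the most, HC 3, had the most of its group. H 3 also had the fewest H3K4me3 peaks of any library (11249), and the part of peak number in these counts was not tested.

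Dendritic cell promoters marked, of 7, were 1 to 2 in CC_l and 3 in each HH library, and 2 in CCC and 4 to 6 in HHC. Their summed coverage was 251% to 279% in HHC against 77.9% to 128% in CCC. Of 5 B cell markers, 0 to 1 were marked in CC_l and 4 in each HH library, and 0 in CCC and 4 to 5 in HHC. Their sums were 119% to 306% in HHC and 0% in CCC. By H3K27ac the B cell markers were marked at 0 in every group but HH (0 to 2) and HHC (0 to 4). The dendritic cell markers were marked at 0 in C, CC_s and CCC, 0 to 2 in CC_l, H and HH, 0 to 3 in HC and 0 to 5 in HHC. For H3K27ac at dendritic cell markers HH thus did not lie above CC_l, and HHC overlapped CCC. T cell markers (5 genes) were marked at 3 to 5 in HHC and at 0 to 2 elsewhere. Endothelial promoters marked, of 5, were 1 to 3 in C, 0 to 5 in H, 0 in CC_s and 1 to 4 in HC. They were 2 to 4 in CC_l and 5 in both HH libraries, and 1 in each CCC library and 3 to 5 in HHC. Among the 7 dendritic cell genes, Flt3 and Xcr1 were marked in 1 HHC library and Itgax in 2, and in no other group, whereas Zbtb46 was marked in all 21 libraries and Batf3 in 10, both CCC libraries among them. Among the 5 T cell genes, Cd8a was marked in 1 HHC library and Cd3e and Cd4 in 2, and in no other group, whereas Lck was marked in 18 of 21. Mesothelial markers (5 genes) were marked at 1 to 3 in C, 0 in H, 0 to 1 in CC_s and HC, 2 to 3 in CC_l and 2 in every library of HH, CCC and HHC, with Upk3b at 0 throughout. Progenitor markers (5 genes) were marked at 3 in C, 0 to 3 in H, 0 to 2 in CC_s, 2 in HC, 2 to 3 in CC_l, 3 to 4 in HH, 3 in CCC and 2 to 4 in HHC, with Pi16 at 0 throughout.

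Adipocyte markers changed as well. For H3K27ac in obese mice, averaged over both cohorts, 7 of 10 were lower (Plin1, Cidec, Lipe, Pparg, Lep, Pck1 and Acsl1). The background was the 16.9% lower named above. Class II members were higher or not called. Of those called, H2-DMb1 differed by 10.8 points in H against C and by 30.7 in HH against CC_l. H2-DMb2 differed by 2.48 and 39.0. The adipocyte calls are not split by cohort here, so the adipocyte and class II changes need not come from the same cohort. The part of other cell types in the class II differences was not tested.

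**Figure D5:**
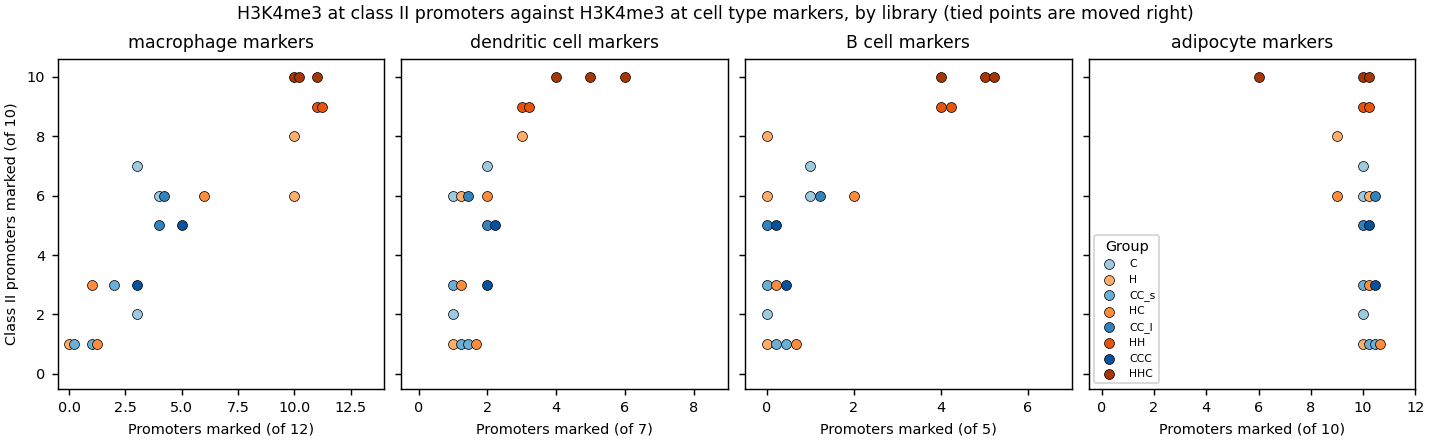
Class II promoters marked by H3K4me3, of 10 (vertical axis), against marker promoters marked (horizontal axis) for macrophage, dendritic cell, B cell and adipocyte lists. Points are libraries, coloured by group, and tied points are moved to the right. Libraries with many macrophage promoters marked have many class II promoters marked, with HH at 9 and HHC at 10, while adipocyte promoters stay at 9 or 10 in all but HHC 3.

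A list of 32 other genes of the pathway was compared in the same way. The RFX, NF-Y and Creb1 genes, whose products hold the X and Y boxes, carried H3K4me3 at 7 of 7 in every library, the interferon-γ signalling genes at 6 or 7 of 7, and the genes that supply peptides at 4 or 5 of 5. MHC class I genes, which present peptides to CD8+ T cells, were marked at 8 or 9 of 9, and co-stimulation genes at 0 to 3 of 3. H2-Eb2, a further class II chain, was marked in no library. For H3K4me3, 0 of 31 tested were called in obese mice, and 2 of 31 were higher in WL mice, beside the 5.05% of all promoters: Cd40, a co-stimulatory receptor, by 45.5 points, and Tap1, a peptide transporter of the class I pathway, by 24.0 (both exact permutation p = 0.05). Cd40 had 0%, 0% and 57.6% in C, 17.1%, 29.6% and 0% in H, 53.4% in 1 HC library, 65.7% and 42.6% in HH, 68.6%, 58.8% and 91.9% in HHC, and 0% elsewhere.

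For H3K27ac, 3 of 31 tested were lower in obese mice, beside 16.9% of all promoters, and 0 of 32 were called in WL mice: Creb1, a factor of the CREB family, by -20.8 points (exact permutation p = 0.00500), Ctsb, a lysosomal protease, by -20.4 (exact permutation p = 0.0450) and Nlrc5, the class I counterpart of Ciita, by -19.7 (exact permutation p = 0.0350). For H3K4me1, 2 of 30 tested were higher in obese mice, beside 3.67% of all promoters. They were Tap2, by 26.8 (exact permutation p = 0.05), and Ifngr1, an interferon-γ receptor chain, by 22.3 (exact permutation p = 0.01). In WL mice 9 of 32 tested were higher for this mark, beside the 4.14% of all promoters, among them the class I genes H2-D1 by 35.2 and H2-K1 by 30.7, the lysosomal protease gene Ctsd by 31.9 and Creb1 by 31.3 (each exact permutation p = 0.05).

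For H3K27me3, 1 of 10 tested was lower in obese mice, near the 9.19% of all promoters, and 0 of 8 were called in WL mice. The gene was Cd40, lower by -55.0 points (exact permutation p = 0.0333). Its coverage was 33.8%, 74.0% and 70.8% in C against 0% and 0% in H, and 96.7% and 88% in CC_l against 83.9% and 0% in HH. The gene thus lay below its controls in all 4 obese libraries, as H2-DMb2 did.

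The promoters whose H3K4me3 coverage over the 21 libraries was most like the mean of H2-Aa, H2-Ab1, H2-Eb1 and Cd74, by Pearson's r among 14298 genes marked in at least 4 libraries, were Ptpn22 (0.963), Pik3cd (0.959), Clec2i (0.952), Gngt2 (0.946), Osbpl3 (0.945), Wipf1 (0.944), Sash3 (0.94), Fgd3 (0.939), Cd200r1 (0.938) and Specc1 (0.938). For H3K27ac, among 12101 genes, they were Gbp8 (0.943), Znrf3 (0.924), Gata3 (0.923), Fgr (0.921), BC035044 (0.918), Gpr183 (0.918), Irf5 (0.916), Fam110a (0.914), Fam111a (0.911) and Dpp4 (0.909). The libraries of a group share their diet and time, so these values describe likeness alone.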

How the data were processed

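The deposited files are peak lists, 1 for each library, with each peak's position and its signal, the summed read coverage. Per the study's methods and the submitters' processing notes, the authors used Trim Galore 0.6.6, Bowtie2 2.4.4, SAMtools 1.13, bedtools 2.30 and SEACR 1.3 on mm10, calling peaks for each library without pooling. The stringent caller kept the top share of peaks (0.01), and whether duplicates were removed was not stated. The study's methods state a minimum depth, but the depth of each library was not given in the sources used here. Read counts were not used, so the edgeR test in the study's methods was replaced, and the number of libraries limits precision.

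From the lists, the percent of each window under peaks was computed with Python 3.11.15, numpy 2.4.6, pandas 2.3.3 and scipy 1.17.1, for windows of 2000 bp either side of 41438 protein-coding starts of 21851 genes and for gene bodies with flanks. An exact permutation test within cohorts gave p-values, adjusted over genes with a peak. It was tested on simulated data. Groups came from titles. The paper calls the replicates of a group biological and took several marks from the same depot. Nothing further says how libraries relate, so p-values measure the spread between libraries, which may be partly technical. Members and lists were chosen with earlier results of these data known. All members are named, and other list genes were named when called, at most 4 for each mark and comparison, by size of change. Alternatives covered windows, stricter peaks, equal peak numbers, starts, presence in place of coverage, leaving out libraries, a replicate block and the treatment field. 2 joint leave-outs were added after the data were seen.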

Additional observations from a re-analysis of the deposited data

How the results depend on the processing

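The difference in members marked kept its direction under the alternatives run, except that for H3K4me3 in obese mice the treatment field gave -1.75 in place of 1.75. It moved for H3K27me3 in obese mice with windows of 5000 bp (-2.67), and for H3K4me1 in obese mice with stricter peaks (1.33) and equal peak numbers (1.17). Leaving out 1 library gave 1.0 to 2.75 and 3.17 to 4.42 for H3K4me3 (obese and WL), 2.5 to 4.5 and 2.75 to 4.25 for H3K27ac, 2.33 to 3.33 and 2.67 to 3.92 for H3K4me1, and -1.83 to -0.333 and -2.5 to -1.0 for H3K27me3. The 4 pairs of a member and a mark called in obese mice became 0 with windows of 500 bp, 2 with stricter peaks, 2 with equal peak numbers, 2 with the most upstream start, 1 with presence, 7 with whole genes, 8 without H 3 and HHC 1, and 2 without HH 1, HHC 3 and HC 3, and ranged from 2 to 7 when 1 library was left out. The 6 in WL mice became 3 with windows of 500 bp, with stricter peaks, with equal peak numbers and with the treatment field, 2 without H 3 and HHC 1, and 1 without HH 1, HHC 3 and HC 3, and ranged from 3 to 7. In WL mice 3 remained without H3K4me3 libraries CC_s 1, CC_s 2, HC 3, CCC 3, HHC 1, HHC 2 or HHC 3, each alone. In obese mice 7 were called without H3K4me3 H 3, and 2 without H3K27ac CC_l 2, HH 1, HH 2 or HH 3, or without H3K27me3 C 1, C 2, C 3, H 1, H 2 or CC_l 2. The replicate block gave 0 in both comparisons, because its smallest p, 0.0625 with 5 pairs, is above the threshold. Replicate numbers did not pair the libraries: deviations of the same number had a median correlation of -0.016, and those of other numbers 0.012. H3K4me1 at H2-DMa in WL mice reversed with the most upstream start (-5.47). Ciita H3K27me3 in WL mice passed under 18 of 21 alternatives, the exceptions being the most upstream start (-19.3, exact permutation p = 0.0950), the replicate block (exact permutation p = 0.0625) and presence (-33.3, exact permutation p = 0.5). Over all called pairs, 193 alternatives kept the call, 248 lost it and 1 reversed it, and the causes were not tested.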
